A study of Mus musculus with 9 samples.

Results

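The genes described here were 9 components and regulators of the complement system in the mouse brain: C1qa, C1qb, C1qc, C1ra, C1s1, C3, C4b, C3ar1 and Serping1. They were chosen by name, as 9 of the 49315 gene rows of the count table, and all 9 passed the filter on low counts, which left 18492 genes for testing. RNA was sequenced from snap-frozen whole brains of male C57BL/6J wild-type mice compared by age alone, with poly(A) selection and paired 150-base reads. The young group held 5 libraries from mice aged 3 months (replicates 1 to 5), and the old group held 4 libraries from mice aged 33 months (replicates 1, 3, 4 and 5). Each library came from the brain of an individual animal, so the spread between libraries included the spread between mice. Library totals ran from 14229259 to 21150439 counts. The tissue label matched the markers: all 8 neuron, 8 astrocyte, 6 oligodendrocyte and 12 homeostatic microglia markers were above 0 in every library, while the liver transcript Alb had 5 counts over the 9 libraries together.

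Complement is a cascade of proteins that tags cells, debris and synapses for removal. In the classical pathway C1q binds a target and its partner proteases C1r and C1s are activated, C1s then cuts C4 and C2 to form an enzyme that cuts C3, and fragments of C3 coat the target or signal through receptors such as the C3a receptor. The C1 inhibitor, encoded by Serping1, blocks C1r and C1s. In the brain C1q is made mostly by microglia, the resident macrophages, whereas C3 and C4 transcripts are known from reactive astrocytes, microglia and other glia, and complement tagging of synapses is known from development and from models of neurodegeneration.

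On the GRCm38 assembly the genes of the 3 C1q chains lay side by side on the minus strand of chromosome 4, with C1qb at chr4:136880129-136886187, C1qc at chr4:136889804-136893065 and C1qa at chr4:136895917-136898803. The gap was 3.62 kb between C1qb and C1qc and 2.85 kb between C1qc and C1qa. On chromosome 6, C1ra at chr6:124512405-124523443 on the plus strand and C1s1 at chr6:124530345-124542359 on the minus strand were separated by 6.9 kb, and C3ar1 lay at chr6:122847138-122856161 on the minus strand. C3 at chr17:57203970-57228136 and C4b at chr17:34728380-34743882 were both on the minus strand of chromosome 17, and Serping1 was at chr2:84765387-84775444 on the minus strand.

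Promoter windows of 300 bases, from 250 bases before to 50 after the start, were present in the RefSeq table (GRCm38.p6) for 6 of the 9 genes. The windows of the neighbouring C1qb and C1qc genes, whose levels moved together, are printed with that of C3, which had the smallest adjusted p of the 9. Each is given 5′ to 3′ on the minus strand, with capitals marking the PU.1 core (GAGGAA, sought on both strands), a motif of the main transcription factor of microglia and macrophages.
C1qb promoter, chr4:136886151-136886450: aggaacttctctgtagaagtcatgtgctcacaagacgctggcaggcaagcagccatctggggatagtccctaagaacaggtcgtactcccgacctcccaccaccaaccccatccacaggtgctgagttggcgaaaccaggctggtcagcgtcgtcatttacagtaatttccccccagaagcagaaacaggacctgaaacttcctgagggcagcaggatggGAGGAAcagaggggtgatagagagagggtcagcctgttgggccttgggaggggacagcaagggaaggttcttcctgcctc
C1qc promoter, chr4:136892865-136893164: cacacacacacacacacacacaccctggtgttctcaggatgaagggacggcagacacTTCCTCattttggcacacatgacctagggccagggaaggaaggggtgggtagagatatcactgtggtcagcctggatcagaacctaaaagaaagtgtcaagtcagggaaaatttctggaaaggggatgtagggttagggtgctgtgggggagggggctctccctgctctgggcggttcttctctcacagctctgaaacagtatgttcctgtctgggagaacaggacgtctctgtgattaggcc
C3 promoter, chr17:57228087-57228386: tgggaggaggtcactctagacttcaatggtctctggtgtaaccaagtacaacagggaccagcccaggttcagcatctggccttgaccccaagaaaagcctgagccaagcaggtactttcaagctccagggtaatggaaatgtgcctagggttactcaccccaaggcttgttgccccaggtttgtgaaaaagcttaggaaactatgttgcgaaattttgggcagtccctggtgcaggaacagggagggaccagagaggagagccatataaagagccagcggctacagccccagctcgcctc
The PU.1 core was found once in C1qb, on the strand shown, and once in C1qc, on the other strand, and was not in the C3 window. It also occurred in the C1ra window, and 28.1% of 32544 promoter windows of the same length held it, so that its presence is a description of the letters only. The C1ra window also held a GAS element, the STAT binding motif TTCNNNGAA, found in 8.33% of windows. The C3ar1 window held an AP-1 motif (TGANTCA), found in 7.79% of windows. None of these 3 motifs, each sought on both strands, was in the windows of C3 or C1s1.

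Levels are given as CPM, the count of a gene relative to the total of its library in the usual per-million unit, with totals scaled by the trimmed mean of M values (TMM). Log2 fold changes (FC, old over young) and their standard errors (SE) come from the quasi-likelihood test of edgeR, and p-values were adjusted by the Benjamini-Hochberg method over all 18492 genes. A gene was called where the adjusted p was under 0.05 and the log2 FC was over 0.58 in size. Young replicate 4 stood apart from the other young libraries for several of these genes. Together the 9 transcripts took 0.0113% to 0.012% of the counts in the other 4 young libraries, 0.0275% in young replicate 4, and 0.0466% to 0.056% in the old libraries. The edgeR fits, the counts over gene lists and the ratios were therefore also computed without young replicate 4, while the order of TPM levels and the correlations rest on all 9 libraries.

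Of the 9 genes, 8 were called higher in old brains, where 2.28% of all genes tested were called higher and 0.4% lower. By the adjusted p alone it was also 8 of the 9, against 6.2% of all genes higher and 4.83% lower. C4b rose the most, by 2.78 on the log2 scale (6.87-fold), followed by C3 at 2.504 (5.67-fold). The 3 C1q chains, C1ra and C1s1 rose between 1.91-fold and 2.38-fold, and Serping1 rose 1.7-fold. C3ar1 had a log2 FC of 0.75 and did not pass (adjusted p = 0.146). For 7 of the 9 genes, C1qa and C3ar1 being the exceptions, every old library lay above every young library, which held for 6.5% of all genes tested. The median log2 FC of the 9 genes was 0.99, against 0 over all genes. In bulk tissue, more cells of a type and more RNA per cell cannot be told apart. Without young replicate 4, all 9 genes were called higher, against 2.9% of the 18132 genes then tested.

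**Figure D1:**
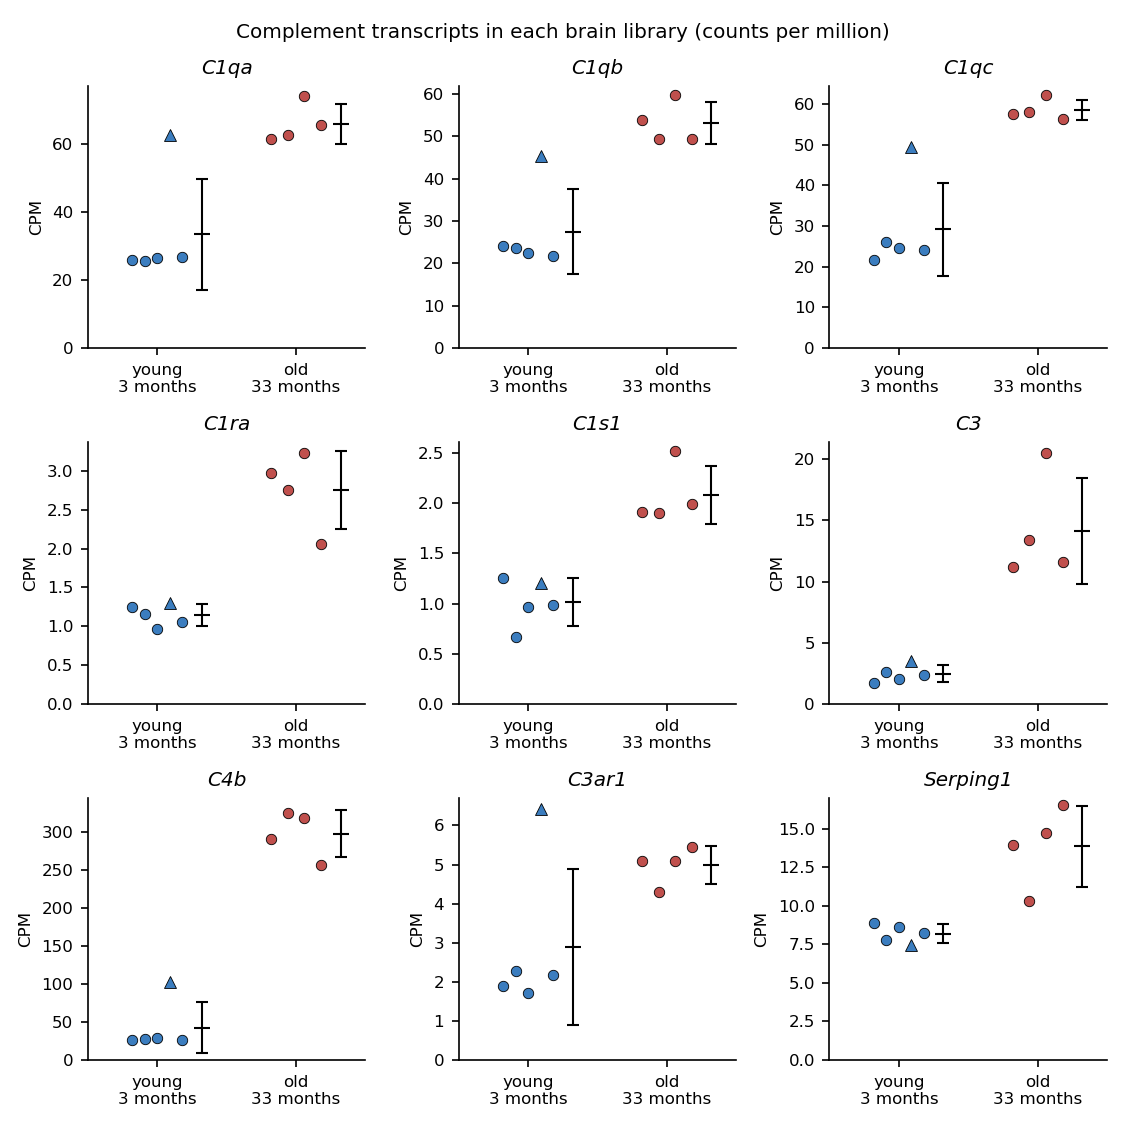
Level of each of the 9 complement transcripts in CPM (vertical axis, from 0) in the 5 young and 4 old brain libraries (points; young replicate 4 is the triangle), with the mean and SD of each group beside the points. Young replicate 4 lies among the old libraries for C1qa, above them for C3ar1 and with the other young libraries for C1ra and Serping1, and for C3 and C4b every old library is above every young library.

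The 3 chains of C1q, the recognition protein of the classical pathway, rose by nearly the same amount. The level of C1qa was 25.9, 25.7, 26.6, 62.8 and 26.8 CPM in young replicates 1 to 5, and 61.5, 62.7, 74.4 and 65.7 CPM in old replicates 1, 3, 4 and 5. The groups overlapped because young replicate 4 exceeded 2 of the 4 old libraries, while the other 4 young libraries lay between 25.7 and 26.8 CPM. C1qb was at 24.2, 23.7, 22.5, 45.4 and 21.7 CPM in the young and 53.9, 49.3, 59.8 and 49.3 CPM in the old libraries. C1qc was at 21.7, 25.9, 24.7, 49.4 and 24.0 CPM in the young and 57.6, 58.1, 62.2 and 56.4 CPM in the old libraries. For both chains young replicate 4 came close to the old libraries but stayed below them, and the lowest old library was 1.09 times the highest young library for C1qb and 1.14 times for C1qc. The log2 FC was 0.96 for C1qa (SE 0.220, 95% interval 0.49 to 1.43, adjusted p = 0.0130 by edgeR). It was 0.94 for C1qb (SE 0.174, adjusted p = 0.00419) and 0.99 for C1qc (SE 0.181, adjusted p = 0.00379). Without young replicate 4 the log2 FC rose to 1.33, 1.20 and 1.28, respectively. With a robust estimate of the dispersion the adjusted p of C1qa was 0.0932 at the same log2 FC as in the main fit.

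C1r and C1s, the proteases that sit on C1q and start the cascade, are encoded by C1ra and C1s1, and both transcripts were scarce and about 2-fold higher in old brains. C1ra was at 1.25, 1.16, 0.962, 1.30 and 1.05 CPM in the young libraries, from 14 to 27 counts each. The old libraries had 2.98, 2.75, 3.23 and 2.05 CPM, from 35 to 59 counts, and the lowest of them was 1.58 times the highest young library. C1s1 was at 1.25, 0.664, 0.962, 1.21 and 0.988 CPM in the young and 1.91, 1.90, 2.52 and 1.996 CPM in the old libraries. Neither gene set young replicate 4 apart, and the groups did not overlap for either. The log2 FC was 1.25 for C1ra (SE 0.183, adjusted p = 0.000934 by edgeR) and 1.02 for C1s1 (SE 0.205, adjusted p = 0.00661). C1s1 was just outside the threshold when TPM values were tested with limma and a pseudocount of 0.1 (adjusted p = 0.0512), and with a pseudocount of 1 it missed the fold threshold (log2 FC 0.46, adjusted p = 0.0347), so that it was called on neither TPM scale. Of the 150-base windows of the annotated transcripts, 26.3% for C1ra were identical in the neighbouring copy C1rb and 11.5% for C1s1 in C1s2 or Gm16567. C1rb had 1 count and C1s2 had 55 counts over all 9 libraries. Because C1s1 shared 576 exonic bases with Gm16567 on the opposite strand, and the libraries' strandedness was not given in the sources used here, reads there may not be separable.

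C4b encodes complement C4, which C1s cuts and which attaches to targets, and it was the most counted transcript of the 9 in every library, by a small margin over C1qa in young replicates 1 and 5 and by a wide margin in all old brains. The young libraries had 26.5, 27.5, 28.9, 103 and 26.8 CPM, and the old libraries had 292, 325, 319 and 257 CPM. Young replicate 4 was 3.77 times the mean of the other young libraries, yet the lowest old library was 2.49 times that library. The log2 FC was 2.78 (SE 0.331, 95% interval 2.07 to 3.49, adjusted p = 0.000208 by edgeR) and reached 3.44 without young replicate 4, when the mean of the old libraries was 10.9 times that of the other young libraries. Among the summed CPM of the 9 genes, C4b made up 23.4% to 24.7% in 4 young libraries, 36.8% in young replicate 4 and 55.2% to 61.6% in the old libraries. The 3 C1q chains made up 63.0% to 64.2%, 56.1% and 32.2% to 36.7%, respectively. Its near copy C4a, 65.2 kb away, had 7.48% of the C4b windows in common. C4a averaged 2.53 CPM in the young and 3.27 CPM in the old group (log2 FC 0.37, adjusted p = 0.292), and its level was 0.823% to 13.3% of that of C4b in the 9 libraries. C2, the protein that joins C4 in the enzyme that cuts C3, was called higher, from a mean of 1.30 to 2.56 CPM (log2 FC 0.95, SE 0.176, adjusted p = 0.00413), and its groups did not overlap. Of the 3872 exonic bases of C2, 1656 were also exonic in Gm20547 on the same strand and 161 in Zbtb12 on the other, so that its count may cover only part of its reads or include those of a neighbour.

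C3, the component on which the complement pathways converge, was low in young brains and rose in every old brain. Its level was 1.73, 2.60, 2.06, 3.53 and 2.41 CPM in the young libraries and 11.2, 13.4, 20.5 and 11.6 CPM in the old libraries. The lowest old library was 3.17 times the highest young library, which was again replicate 4. The log2 FC was 2.504 (SE 0.210, 95% interval 2.05 to 2.96, adjusted p = 1.47e-05 by edgeR). It was 2.69 without young replicate 4 and 2.27 without old replicate 4, the library with the most C3.

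C3ar1, the receptor for the C3a fragment, was the only one of the 9 genes that did not pass. It was at 1.88, 2.27, 1.72, 6.42 and 2.16 CPM in the young and 5.10, 4.30, 5.09 and 5.46 CPM in the old libraries. Young replicate 4 exceeded all 4 old libraries, and the other 4 young libraries lay below all of them. The log2 FC was 0.75 (SE 0.315, 95% interval 0.08 to 1.43, adjusted p = 0.146 by edgeR). Without young replicate 4 it was 1.31 (adjusted p = 0.000108). With every gene kept the adjusted p was 0.0408, and with limma on TPM it was 0.0317 with a pseudocount of 1 and 0.0383 with a pseudocount of 0.1. In these fits the log2 FC was 0.74, 0.52 and 0.77, so that with a pseudocount of 1 C3ar1 was still not called.

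Serping1, the inhibitor of C1r and C1s, rose the least of the called genes, and young replicate 4 was its lowest library. The young libraries had 8.88, 7.80, 8.66, 7.44 and 8.22 CPM and the old libraries had 13.97, 10.3, 14.7 and 16.6 CPM. The groups did not overlap in CPM, with the lowest old library at 1.16 times the highest young library. The log2 FC was 0.77 (SE 0.116, 95% interval 0.52 to 1.02, adjusted p = 0.00116 by edgeR), and 0.73 without young replicate 4. In TPM the groups overlapped (6.99 to 12.7 in young and 9.08 to 17.3 in old libraries), and limma gave an adjusted p of 0.0688 with a pseudocount of 1 and 0.0569 with a pseudocount of 0.1. On these TPM scales the median log2 FC of all genes was -0.14 and -0.16, but single genes did not all move by that much. With a pseudocount of 1, C1ra had a log2 FC of 0.64 against 1.25 by edgeR, and C4b had 2.81 against 2.78. The part of the lower median in the Serping1 result was not tested.

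**Figure D2:**
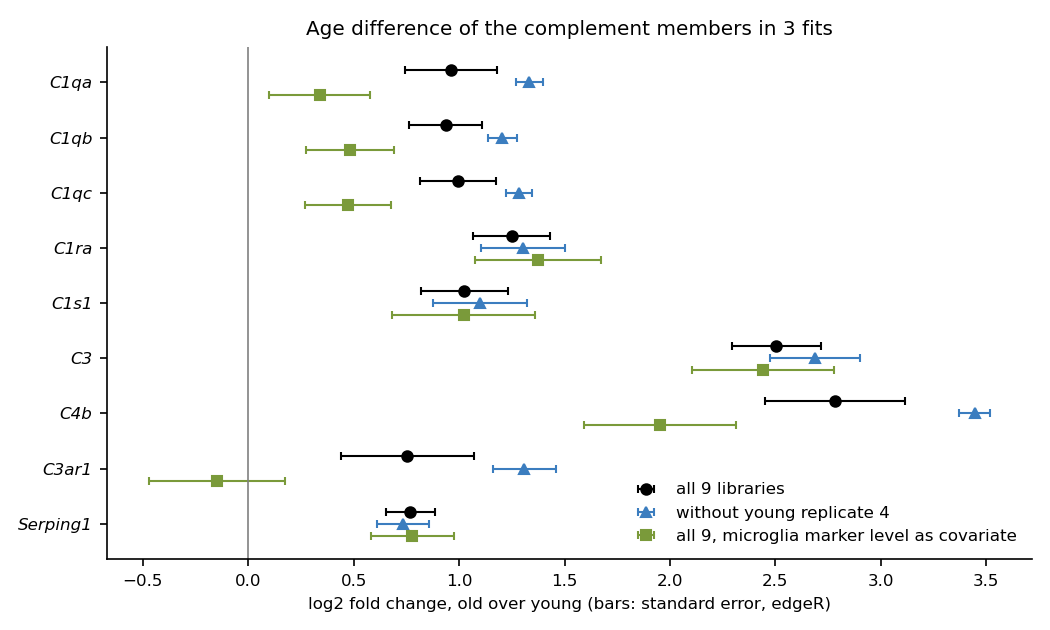
Log2 fold change, old over young, of each complement gene (points, with bars for the standard error) from edgeR in all 9 libraries, without young replicate 4, and with the mean level of 12 homeostatic microglia markers as a covariate. Leaving out young replicate 4 moved C1qa, C1qb, C1qc, C4b and C3ar1 to larger values with smaller errors, and with the covariate C1ra, C3 and C4b stayed called while C3ar1 was at -0.15.

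Whether the genes rose by different amounts was tested with 6 ratios of TPM values within each library, which library scaling cannot move. The 2 ratios that set C3 and C4b against C1qa were higher in old brains, and the ratios among the C1q chains were not. The C4b/C1qa ratio was 0.186, 0.195, 0.199, 0.300 and 0.183 in the young and 0.866, 0.947, 0.783 and 0.716 in the old libraries. Young replicate 4 had the highest young ratio but stayed well below the old libraries. The C3/C1qa ratio was 0.0135, 0.0204, 0.0157, 0.0113 and 0.0182 in the young and 0.0367, 0.0432, 0.0556 and 0.0356 in the old libraries, and here young replicate 4 was the lowest of all. The mean log2 difference was 1.98 for C4b/C1qa (3.94-fold) and 1.44 for C3/C1qa (2.72-fold), each with p = 0.0159 in a two-sided exact permutation test, the smallest p that 5 against 4 libraries allow, and an adjusted p of 0.0476 over the 6 ratios. With any 1 library left out the differences were 1.91 to 2.11 and 1.31 to 1.54, and neither could pass, since the smallest p is then 0.0286 or 0.0357 and the exact permutation test gave adjusted p of 0.0857 or 0.107. The mean log2 difference was -0.07 for C1qb/C1qa (exact permutation p = 0.444, adjusted 0.533) and 0.001 for C1qc/C1qa (exact permutation p = 0.968, adjusted 0.968). It was -0.19 for C1s1/C1ra (exact permutation p = 0.349, adjusted 0.524) and -0.32 for Serping1/C1s1, the inhibitor over its target (exact permutation p = 0.175, adjusted 0.349). The groups overlapped in these 4 ratios.

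**Figure D3:**
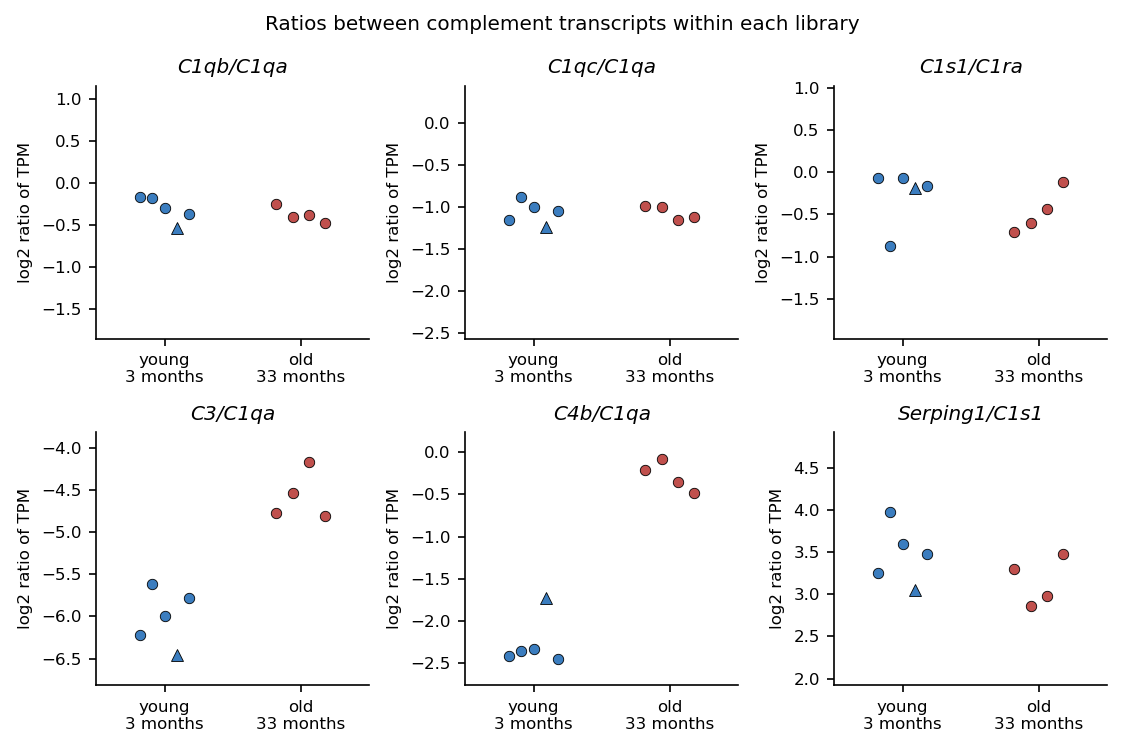
Log2 ratio of TPM between 2 complement transcripts of the same library (vertical axis, every panel spanning the same number of log2 units) in the 5 young and 4 old libraries, with young replicate 4 as the triangle. The old libraries lie above all young libraries for C3/C1qa and C4b/C1qa and overlap with them for C1qb/C1qa, C1qc/C1qa, C1s1/C1ra and Serping1/C1s1.

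Levels were compared between genes in TPM, which accounts for transcript length. In young brains the order of mean levels was C1qa (81.6 ± 30.3 TPM, SD, n = 5), C1qb (64.5 ± 17.5), C1qc (38.5 ± 11.4), C4b (18.5 ± 12.1), Serping1 (9.32 ± 2.26), C3ar1 (1.66 ± 0.901), C3 (1.22 ± 0.238), C1ra (0.997 ± 0.139) and C1s1 (0.846 ± 0.230). In old brains it was C1qa (147 ± 16.3 TPM, SD, n = 4), C4b (121 ± 8.97), C1qb (113 ± 15.1), C1qc (70.2 ± 5.98), Serping1 (14 ± 3.50), C3 (6.32 ± 1.77), C3ar1 (2.70 ± 0.470), C1ra (2.13 ± 0.415) and C1s1 (1.54 ± 0.231). C4b thus moved from the fourth to the second place, and C3 passed C3ar1. Among the young libraries the ranges of neighbours in the order overlapped for every pair except Serping1 and C3ar1. Among the old libraries the neighbours C1qa and C4b, C4b and C1qb, C3ar1 and C1ra, and C1ra and C1s1 overlapped, and C4b exceeded C1qb in 3 of 4 libraries.

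Young replicate 4 was placed for each gene between the mean of the other 4 young libraries, set to 0, and the mean of the old libraries, set to 1. It lay at 0.919 for C1qa, 0.743 for C1qb and 0.735 for C1qc, and at 1.48 for C3ar1. For C4b it lay at 0.281, for C1s1 at 0.216, for C1ra at 0.12 and for C3 at 0.111, and Serping1 was below the other young libraries at -0.173. As a fold over the mean of the other 4 young libraries, this library was highest for C4b (3.77) and C3ar1 (3.2), followed by C1qa (2.39), C1qc (2.05) and C1qb (1.97). The fold was 1.6 for C3, 1.25 for C1s1, 1.18 for C1ra and 0.887 for Serping1. C4b was thus raised the most in fold but lay far below the old libraries, whose mean was 10.9 times that of the other young libraries. The same library had 576 CPM summed over the 14 activated microglia genes (339 to 371 CPM for the other 4 young and 495 to 637 CPM for the 4 old libraries) and 680 CPM over the 12 reactive astrocyte genes (295 to 338 and 653 to 930, respectively). Gfap alone gave 514 of these 680 CPM. The mean log2 CPM of the 12 genes was 3.38, below every old library (3.58 to 4.19) and above the other 4 young (2.52 to 2.73). For the 14 activated microglia genes it was 4.26, within the old range (4.03 to 4.45). The homeostatic microglia markers of young replicate 4 summed to 363 CPM. Their sum was 263 to 296 CPM for the other 4 young and 347 to 407 CPM for the 4 old libraries. The part of these cell states in the complement levels of that library was not tested.

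**Figure D4:**
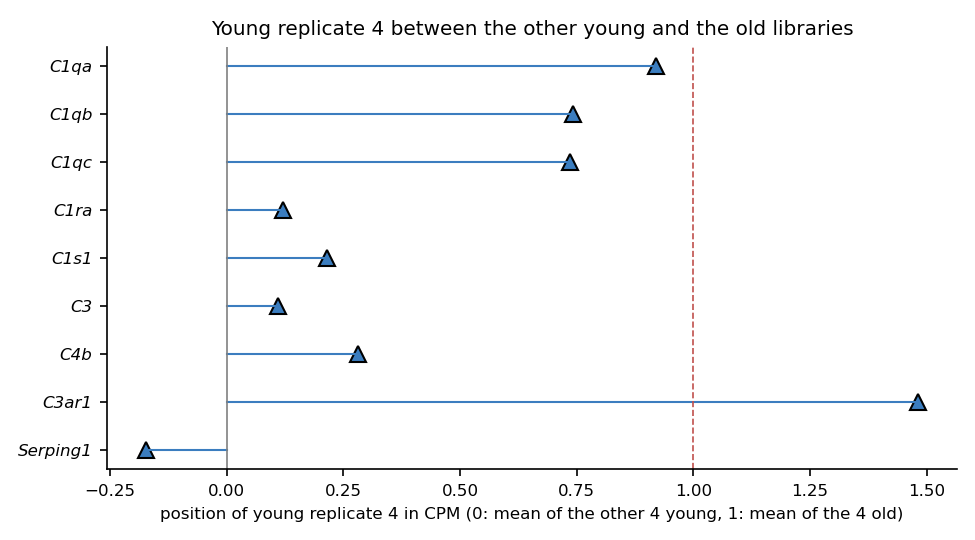
Position of young replicate 4 for each complement gene on a scale in CPM where 0 is the mean of the other 4 young libraries and 1 (dashed line) the mean of the 4 old libraries. The C1q chains lie between 0.735 and 0.919 and C3ar1 beyond 1, while C1ra, C1s1, C3 and C4b lie below 0.3 and Serping1 below 0.

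Another 51 complement genes were listed, of which 32 passed the filter on low counts, and 3 of these were called, all higher. Over all genes tested, 2.28% were called higher and 0.4% lower. Among the other genes of classical and lectin initiation, 5 of 12 were tested and C2 was the 1 that rose. Masp1 and Masp2, the proteases of the lectin pathway, had log2 FC of -0.07 (adjusted p = 0.701) and -0.35 (adjusted p = 0.427), and Fcna, a ficolin, had 0.60 (adjusted p = 0.414). In the alternative pathway Cfb, which forms the enzyme with C3b, had 0.04 (adjusted p = 0.952) and Cfp, properdin, had -0.08 (adjusted p = 0.620), and Cfd had 4 counts in all. Of the exonic bases, 2246 of 2825 for Cfb were shared with Gm20547 on the same strand and 1817 of 3307 for Masp2 with Tardbp on the other strand, so that the counts of both are uncertain. Of the 7 terminal genes, whose products form the membrane pore, C7 (-0.18, adjusted p = 0.786) and C8g (-0.06, adjusted p = 0.856) were tested and did not pass. The C5 gene Hc, C6, C8a, C8b and C9 had 65, 23, 6, 13 and 4 counts over the 9 libraries and were not tested.

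Among 11 tested receptors and C1q binders 2 rose. C5ar1, the receptor for C5a, had 0.575, 0.498, 0.756, 1.01 and 0.556 CPM in the young and 2.02, 1.13, 2.30 and 2.05 CPM in the old libraries (log2 FC 1.46, SE 0.262, adjusted p = 0.00345). Itgb2, the beta chain of complement receptors CR3 and CR4, had 3.92, 3.93, 4.26, 8.79 and 5.37 CPM in the young and 9.72, 10.2, 15.9 and 10.8 CPM in the old libraries (log2 FC 1.14, SE 0.222, adjusted p = 0.00562). The groups did not overlap for either gene. Itgam, the alpha chain of CR3, had a log2 FC of 0.32 and an adjusted p of 0.0733, with every old library above every young library, but 3450 of its 5024 exonic bases were shared with Gm49368 on the same strand. Itgax, the alpha chain of CR4, was at 0.261, 0.166, 0.0687 and 0.247 CPM in young replicates 1, 2, 3 and 5, at 9.71 CPM in young replicate 4 and at 2.76, 3.95, 5.42 and 3.64 CPM in the old libraries. Its log2 FC was 0.80 in all libraries (SE 0.842, adjusted p = 0.598) and 4.32 without young replicate 4 (adjusted p = 4.42e-06). C5ar2, the other C5a receptor, went from a log2 FC of 0.78 (adjusted p = 0.0677) to 1.04 (adjusted p = 0.0125) without that library. In that fit 5 genes of the 51 listed were called, all higher, against 2.9% called higher of the 18132 genes then tested. Not all of the 51 were tested there. Cr2, Cd93, C1qbp, Calr, Lrp1 and Megf10 did not pass, with log2 FC between -0.17 and 0.13.

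Among 12 tested regulators none was called. Cd55, which speeds the decay of the enzymes that cut C3, fell by 0.48 on the log2 scale (adjusted p = 0.0407), which was under the fold threshold. Csmd2, a transmembrane protein with complement control repeats, fell by 0.33 (adjusted p = 0.00116). Clu, clusterin, which keeps the terminal complex off membranes, had a log2 FC of 0.11 (adjusted p = 0.0686). Vtn, Cr1l, Cd46, Susd4, Csmd1, Csmd3, Cd59a and Cd59b did not pass, with log2 FC between -0.11 and 0.09.

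**Figure D5:**
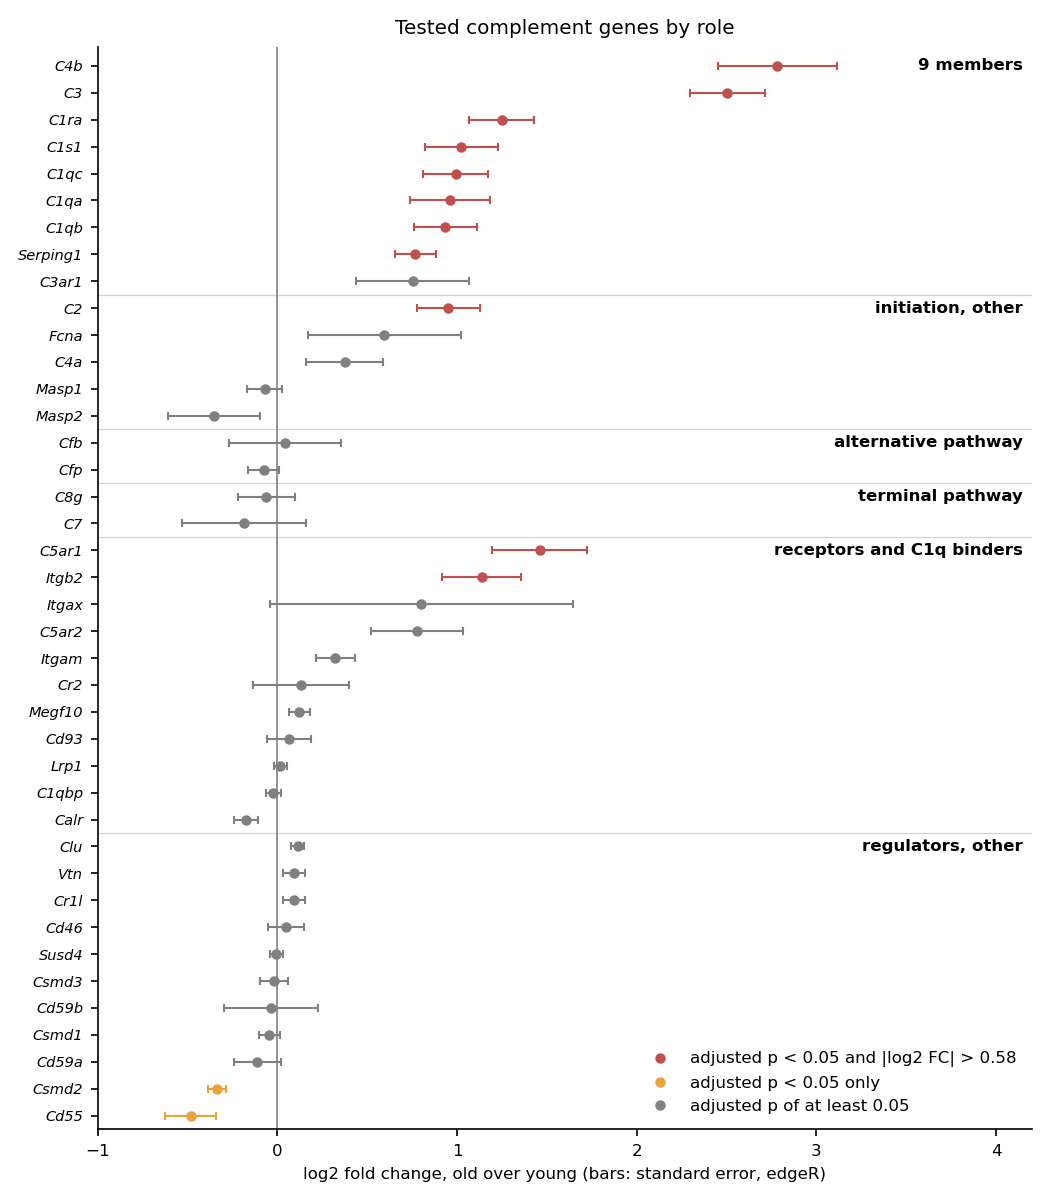
Log2 fold change, old over young, of the 9 complement members and of the other tested complement genes named in the text, by role (points, with bars for the standard error derived from the edgeR test), coloured by whether they passed the adjusted p alone or together with the fold threshold. The called genes are 8 of the 9 members, C2, C5ar1 and Itgb2, and no tested gene of the alternative or terminal pathway passed.

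Markers of the cell types in whole brain were read in the same fit, where 6.2% of all genes tested were higher and 4.83% lower by the adjusted p. Of 12 homeostatic microglia markers 4 had an adjusted p under 0.05, all higher (median log2 FC 0.20). Csf1r, the receptor that keeps microglia alive, had a log2 FC of 0.18 (adjusted p = 0.321). Of 14 activated microglia genes 7 rose (median 0.81), and without young replicate 4 it was 12 (median 1.31). The most abundant of these was Ctsd, with a log2 FC of 0.42 (adjusted p = 0.0584). Of 12 reactive astrocyte genes 10 rose (median 0.92), among them Gfap at 1.07 (adjusted p = 0.0122) and Vim at 0.95 (adjusted p = 5.59e-06), whereas 0 of 8 general astrocyte markers passed in either direction (median 0.03), with 1 or more counts of each in every library.

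When the mean log2 CPM of the homeostatic microglia markers was added to the fit, 3 of the 9 genes were called: C3 at a log2 FC of 2.44 (adjusted p = 0.00541), C4b at 1.95 (adjusted p = 0.0197) and C1ra at 1.37 (adjusted p = 0.0386). The C1q chains then had 0.34 (adjusted p = 0.583), 0.48 (adjusted p = 0.313) and 0.47 (adjusted p = 0.309) for C1qa, C1qb and C1qc. C1s1 and Serping1 were no longer called, with log2 FC of 1.02 and 0.78 and adjusted p of 0.179 and 0.0725, and C3ar1 turned to -0.15 (adjusted p = 0.893). In that fit 112 genes were called higher and 14 lower (0.681% of the genes tested), against 421 and 74 without the covariate. Because the marker level itself was higher in the old libraries and in young replicate 4, this fit leaves less of the age difference to test, and the part of microglial content in the result was not tested.

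Blood and vessel markers also moved with age. All 8 red blood cell and neutrophil genes rose (median 1.33), with Hbb-bs the most abundant. Their summed level was 87.3 to 118 CPM in the young libraries and 267, 130, 482 and 172 CPM in old replicates 1, 3, 4 and 5. Old replicate 4, the highest, also had the highest C1qa, C1qb, C1qc, C1ra, C1s1 and C3 of the old libraries. The same 8 complement genes were called without it. Of 6 border macrophage markers 2 rose (summed level 7.36 to 9.03 CPM in young and 10.4 to 15.9 CPM in old libraries, Mrc1 the most abundant), and of 6 endothelial markers 4 rose (220 to 232 and 254 to 293 CPM, Flt1 the most abundant). No choroid plexus gene passed. Of 6 hepatocyte genes only 2 were tested, Apoa2 and Ttr, and neither passed. Apoa2 was low, at a mean of 0.733 CPM in the young and 0.63 CPM in the old group, and Ttr was also on the choroid plexus list. Of 8 meningeal and perivascular fibroblast markers 1 fell and none rose. Of the 3 tested B and plasma cell genes 1 rose. Among 8 neuron markers 2 fell, and among 6 oligodendrocyte markers 2 rose and 1 fell. The part of these cells in the complement levels was not tested.

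Across the 9 libraries, which share their age groups, the log2 CPM of the C1q chains followed each other with Pearson's r of 0.987 to 0.988, whereas C1qa and Serping1 had r = 0.676. The 5 genes most like C1qa were Ctsa (r = 0.996), Serpina3n (0.994), Ctss (0.993), Cd68 (0.992) and Tyrobp (0.991). For C4b they were Tcte2 (0.986), Ctss (0.986), Osmr (0.985), Per2 (0.984) and Cd68 (0.981). The genes most like C3 were Ly6c1 (0.988), Myof (0.985), H2-T23 (0.985), Adipor2 (0.983) and Jade2 (0.983), none of which was among those of C1qa or C4b. Serping1 had Pcdhgb6 (0.98), Mtmr3 (0.968), Pcna (0.96), Tmpo (0.948) and Slc2a4 (0.947). These values describe 9 libraries in which age and young replicate 4 set most of the spread, and carry no test.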

How the data were processed

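Whole brain RNA-seq of 5 young and 4 old mice was taken from the count table that the authors deposited, with raw counts per gene (Trimmomatic, STAR and featureCounts on GRCm38, uniquely mapped exonic reads per the study's methods; mm10 and DESeq2 are named in the submitters' processing notes). The authors also deposited normalized counts, a signal equal to the counts of a library divided by 1 size factor for 17994 genes, and TPM values, whose gene lengths are not given in the sources used here. For each deposited kind of values, 1 column of per-sample values was not used. Of 49315 gene IDs, 49056 had a symbol.

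Genes were filtered with filterByExpr (minimum count 10, minimum total 15), scaled by TMM and tested with edgeR 4.0.16 (quasi-likelihood test, R 4.3.3) with Benjamini-Hochberg adjustment over 18492 genes. Genes were called where the adjusted p was under 0.05 and the log2 fold change over 0.58 in size. The common biological coefficient of variation was 6.71%, and the median SE of a log2 fold change was 0.0838. Log2 CPM used a prior count of 2. Ratios of TPM within a library were compared by a two-sided exact permutation test over the 126 splits of 9 libraries (scipy 1.17.1). Alternatives were the Wald test of DESeq2 1.42.0, limma 3.58.1 on log2(TPM + 1), log2(TPM + 0.1) and log2(normalized counts + 1), other scalings, filters and covariates, and each library left out in turn. Intervals cover the spread between these libraries only.

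The 9 genes, the other complement genes and the marker lists were chosen with earlier results of these data known. Genes named were the 9, the tested genes of the other complement lists, the 5 genes most correlated with C1qa, C3, C4b and Serping1 (mean log2 CPM of at least 1), and at most 4 of the most abundant genes of each marker list; others are named after their values were seen. The script was tested on simulated data. Replicates of a group differed by more than sampling noise. Coordinates come from GENCODE on GRCm38 and promoters from RefSeq. A few genes of these lists are not reported here.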

Additional observations from a re-analysis of the deposited data

Results flagged for a closer look

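In groups of 4 or 5 libraries, a library was picked out where its gap to the nearest other library, as a share of the range of the group, exceeded Dixon's 95% critical value (0.71 for 5 and 0.829 for 4 libraries). Of 30 groups examined 8 had such a library, and 6 of the 8 were young replicate 4. With independent groups chance would give about 1.5, but these groups are not independent, since the C1q chains correlated at 0.987 to 0.988 and the C4b/C1qa ratio uses genes that are also listed by themselves. That young replicate 4 was high for some of these genes was known when they were chosen, so its values are a description. For this library the gap took 0.956 of the range of young log2 CPM values for C1qa, 0.852 for C1qb, 0.783 for C1qc, 0.934 for C4b and 0.794 for C3ar1, and 0.835 of the range of the log2 C4b/C1qa ratio. In each of these it was the highest young library. Old replicate 4 was the highest old library for C1s1, with a gap of 0.833 of the range (2.52 CPM against 1.904 to 1.996 CPM). Young replicate 2 had the lowest log2 C1s1/C1ra ratio among the young libraries, with a gap of 0.862 of the range, from 12 counts of C1s1 and 21 of C1ra.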

How the results depend on the processing

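C3, C4b and C1ra kept their direction and call under every alternative fit, and C1qb and C1qc under all but the homeostatic microglia covariate, under which 3 of the 9 complement genes were called (3 by adjusted p alone), 0 of the other complement genes and 0.681% of all genes tested, against 2.68% without it; C3ar1 reversed there to -0.148. Under the other alternatives 6 to 9 of the 9 genes were called, fewest with limma on log2(TPM + 1). At an adjusted p under 0.01, 1.46% of all genes were called. Leaving out each library in turn gave 8 to 9 of the 9 genes called (8 to 9 by adjusted p alone), 3 to 5 other complement genes and 2.16% to 3.33% of all genes, the highest of each without young replicate 4, when 5 other complement genes were called. The log2 ratio differences ran from -0.126 to -0.0334 for C1qb/C1qa, -0.0434 to 0.0465 for C1qc/C1qa, -0.343 to -0.11 for C1s1/C1ra, 1.31 to 1.54 for C3/C1qa, 1.91 to 2.11 for C4b/C1qa and -0.428 to -0.192 for Serping1/C1s1 with a library left out, and C1qc/C1qa was -0.000339 with 0.1 added to each TPM. The main fit did not treat libraries of the same replicate number as pairs, and whether the numbers pair them was not tested. Deviations of same-numbered libraries correlated at 0.17, -0.118, 0.088 and -0.024 for replicates 1, 3, 4 and 5, and 2 of the 4 correlated best with their own number. With the replicate number as a block 8 of the 9 genes and 2.54% of all genes were called, and permutation within pairs gave ratio differences of 1.54 for C3/C1qa and 1.96 for C4b/C1qa, where the smallest exact p of 4 pairs, 0.125, cannot pass. Transcripts such as C1ra and C1s1, with 12 to 59 counts per library, are limited by depth.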
